A study of Homo sapiens with 10 samples.

Results

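The genes described here are 38 named genes of cell adhesion to the matrix, 16 integrin alpha and beta subunits and 22 adaptor genes that sit in focal adhesions or tie them to actin. They are a list of gene names, and 37 of the 38 stood in a count table of 14054 genes. ITGB4, a beta subunit of laminin receptors, was not analysed here. Of the 37, 33 had enough counts to be tested, 14 integrin subunits and 19 adaptors, among 10968 genes tested in all.

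RNA was sequenced from MRC5 cells, a human fetal lung fibroblast line, after exposure to medium that had been on A549 cells, an alveolar-type epithelial line from a human lung tumour. The stretch group comprised 5 libraries of MRC5 cells that received supernatant of stretched A549 cells, and the static group comprised 5 that received supernatant of non-stretched A549 cells. No genetic change and no other agent is stated for either group, and both received A549 medium, so the comparison is of stretch and not of conditioned medium as such. The labels give the exposure as 24 hours in the sample descriptions and as 6 hours in the series design. Each cell line is a single line, so the spread between libraries covers no donor variation. Nothing in the labels says that the 5 libraries of a group are separate cultures; the p-values therefore measure only the spread between these samples, possibly a technical one.

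Integrins are paired alpha and beta chains that span the membrane and hold a fibroblast to collagen, laminin, fibronectin and vitronectin. Inside the cell, talin and kindlin bind the beta chain and switch the receptor on, and vinculin, alpha-actinin and filamin link it to actin. Focal adhesion kinase, Src and paxillin carry the signal onward. In lung fibroblasts the receptors that pair the alpha V chain with beta chains are known for releasing TGF-beta from its latent form, and integrin alpha 5 beta 1 for assembling fibronectin fibrils.

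Total counts per library ran from 4231653 (stretch 2) to 8455073 (static 3), with 5948227 ± 1544115 with stretch medium and 6675921 ± 1494760 with static medium (SD over 5 libraries each), a difference with p = 0.444 in a two-sided exact permutation test. A count of 3, taken as the floor, was worth 0.354 to 0.679 CPM (counts scaled to TMM library sizes), and floors cover counting error only because PCR reads are not independent molecules. All 12 fibroblast markers on the list used were in the table, and their summed level was 13000 to 16800 CPM with stretch medium and 14900 to 16700 CPM with static medium. The A549 and epithelial list summed to 28.8 to 35.8 CPM with stretch medium and 27.6 to 34.7 CPM with static medium over the 8 of its 16 genes in the table, with CDH1 at 0 to 4, EPCAM at 11 to 25 and KRT19 at 53 to 109 counts per library. The amplicon assay counts short targets and not whole transcripts, so levels are compared between groups and not between genes.

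No integrin or adaptor gene passed the test between stretch and static medium. In edgeR's quasi-likelihood test, 0 of the 33 members had an adjusted p under 0.05, against 0% of all genes tested, where the smallest adjusted p of any gene was 0.0840. DESeq2 also called 0 of the 33, against 2.84% of the 9690 genes to which it gave an adjusted p, and limma-voom called 0 of them, against 0.00912% of all genes. At an unadjusted p under 0.05 in edgeR there were 9 members, 5 integrin subunits and 4 adaptors, which is 27.3% of the 33, against 16.4% of all genes tested. At an adjusted p under 0.1, DESeq2 called 3 members, ITGA3, ITGB1 and FLNC, against 6.19% of its genes. Higher with stretch medium at an unadjusted p under 0.05 in edgeR were 7 members, against 8.08% of all genes, and lower were 2, against 8.37%. The libraries of the groups did not overlap for 2 members, against 3.72% of all genes, namely ITGA3, higher with stretch medium as were 1.74% of genes, and ITGAV, lower as were 1.98%. RNA was taken from whole cultures, so fewer cells of a kind and less RNA per cell cannot be told apart.

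Which members reached that p depended on the libraries. Leaving out 1 library at a time, ITGA3, FLNC and ITGB1 kept an unadjusted p under 0.05 each time, with the largest being 0.0206, 0.0136 and 0.0318 in edgeR. The count of higher members was 2 without stretch 6, 3 without static 7, and 4 without static 1, stretch 2 or static 9. The count of lower members was 1 without static 7 or static 9 and 4 without stretch 2. Counts over all genes fell as well in these fits. With every library in, 886 of 10968 genes were higher, against 698 of 11034 without stretch 6 and 646 of 11025 without static 7. Without static 1, stretch 2 and static 9 the higher genes numbered 789, 690 and 749. Lower genes numbered 918 with every library in, 690 without static 7, 832 without static 9 and 738 without stretch 2.

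Integrin chains at an unadjusted p under 0.05 comprised ITGA3, ITGA5 and ITGB3, higher with stretch medium, and ITGAV and ITGB1, lower with stretch medium. None of these differences passed adjustment over all genes. The median log2 fold change of the 14 tested integrin subunits was 0.041, against 0.00035 for all genes, with 7 above and 7 below 0, and it was 0.061 with the offset for transcript GC content described further on. Log2 fold changes are of stretch minus static medium throughout and are given ± the standard error, whereas CPM are given ± the SD over 5 libraries.

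**Figure D1:**
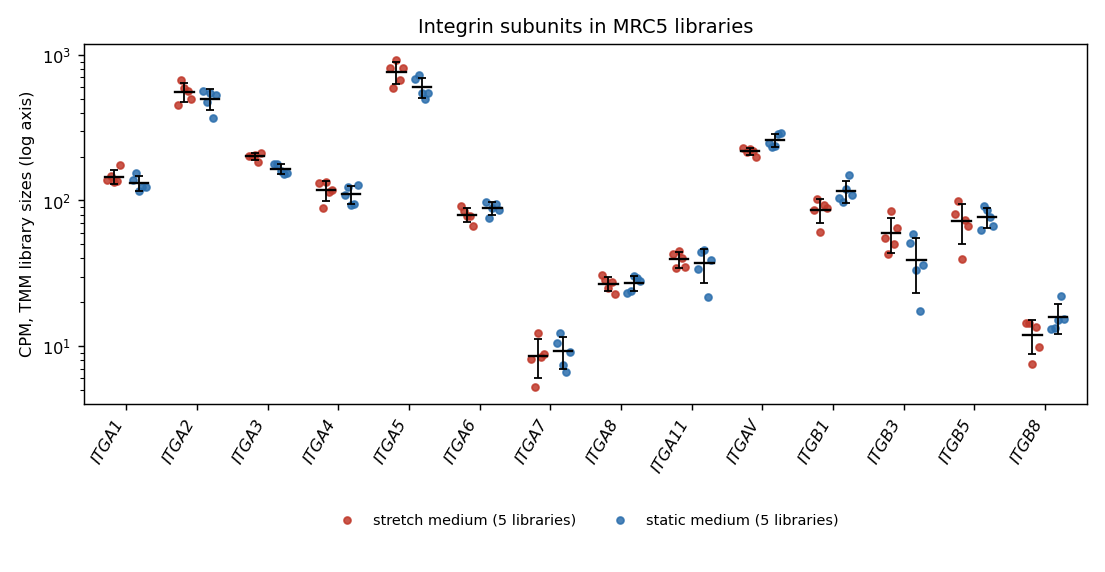
Each point is the level of an integrin subunit in 1 library, in CPM on a log axis, with stretch medium in red left of static medium in blue, and bars are the mean ± SD of 5 libraries. ITGA3 shows no overlap between groups, with 182 to 211 CPM with stretch medium and 152 to 179 CPM with static medium.

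The laminin-binding chains are alpha 3, alpha 6 and alpha 7. ITGA3 (chromosome 17, 50055968 to 50090481, GRCh38), the alpha chain of a receptor for laminins of the epithelial basement membrane, was at 201, 203, 207, 182 and 211 CPM in stretch 2, 4, 6, 8 and 10, against 179, 177, 159.9, 152 and 154 CPM in static 1, 3, 5, 7 and 9. The groups did not overlap for ITGA3, and every stretch library stood above every static one. Its mean was 201 ± 10.97 CPM with stretch medium and 164 ± 12.7 CPM with static medium, a log2 fold change of 0.29 ± 0.10 with a 95% interval of 0.09 to 0.49 (edgeR adjusted p = 0.164, DESeq2 adjusted p = 0.0608). ITGA6, which pairs with beta 1 or beta 4, had a log2 fold change of -0.15, with 66.7 to 91.0 CPM with stretch medium and 75.6 to 98.2 CPM with static medium. ITGA7, the laminin receptor chain of muscle, was at 5.20 to 12.4 CPM with stretch medium and 6.66 to 12.3 CPM with static medium, and it overlaps METTL7B and BLOC1S1 on the opposite strand. For ITGA6 and ITGA7 the libraries of the groups overlapped.

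The alpha 5 chain binds the RGD site of fibronectin together with beta 1. ITGA5 (chromosome 12, 54395261 to 54419460) was at 811, 591, 918, 677 and 816 CPM in stretch 2, 4, 6, 8 and 10, against 680, 725, 550.4, 496 and 549.5 CPM in static 1, 3, 5, 7 and 9. The highest library was stretch 6 and the lowest static 7, and stretch 4 and stretch 8 lay within the static range. The means were 763 ± 129 CPM with stretch medium and 600.1 ± 97.5 CPM with static medium, a log2 fold change of 0.35 ± 0.13 with an interval of 0.06 to 0.63 (edgeR adjusted p = 0.222).

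Its partner ITGB1 (chromosome 10, 32900319 to 33005792), the beta chain shared by most fibroblast collagen, laminin and fibronectin receptors, had its fold change on the other side of 0. ITGB1 was at 86.7, 103, 60.3, 93.0 and 88.4 CPM in stretch 2, 4, 6, 8 and 10, against 104, 97.8, 119.5, 149 and 109 CPM in static 1, 3, 5, 7 and 9. Stretch 6 was the lowest library and static 7 the highest, and the groups overlapped through stretch 4 and static 3. The means were 86.2 ± 15.8 CPM with stretch medium and 116 ± 20.2 CPM with static medium, a log2 fold change of -0.43 ± 0.14 with an interval of -0.74 to -0.12 (edgeR adjusted p = 0.167, DESeq2 adjusted p = 0.0982). The difference between the 2 chains' fold changes was not tested.

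The promoters of these 2 partner chains were read because both hold GGAATG, the core of the site that TEAD factors bind. The windows below are from RefSeq on GRCh38.p14, each given 5′ to 3′ on the gene's strand with the motif in capitals, and the motif starts 82 bases before the ITGA5 start site and 182 bases before the ITGB1 start site.
ITGA5 chr12:54419298-54419393 (-): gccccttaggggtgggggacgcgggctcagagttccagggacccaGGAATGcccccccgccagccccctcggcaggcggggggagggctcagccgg
ITGB1 chr10:32958362-32958457 (-): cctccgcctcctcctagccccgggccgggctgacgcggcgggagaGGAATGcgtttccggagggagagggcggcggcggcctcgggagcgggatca
GGAATG on either strand stood in 3 of 17 windows of 250 bases before the starts of 12 integrin genes (17.6%), the third being ITGA10, against 11.9% of the 35116 windows of all genes. The match is a description of the letters and not a bound site, and the chains that hold it had fold changes of opposite sign.

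The alpha V chain and its beta partners bind vitronectin, fibronectin and the latent TGF-beta complex. ITGAV (chromosome 2, 186590065 to 186680901) was at 231, 215, 225, 220.2 and 199 CPM in stretch 2, 4, 6, 8 and 10, against 249.9, 232, 237, 288 and 292 CPM in static 1, 3, 5, 7 and 9. Every stretch library stood below every static one, the nearest pair being stretch 2 at 231 CPM and static 3 at 232 CPM. The means were 218 ± 12.1 CPM with stretch medium and 259.8 ± 28.5 CPM with static medium, a log2 fold change of -0.25 ± 0.10 with an interval of -0.47 to -0.04 (edgeR adjusted p = 0.236).

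ITGB3 (chromosome 17, 47253846 to 47311816), the beta chain of the vitronectin receptor alpha V beta 3, had the largest fold change of the tested members. It was at 55.2, 43.1, 84.9, 50.3 and 64.7 CPM in stretch 2, 4, 6, 8 and 10, against 50.8, 58.7, 33.2, 17.4 and 35.9 CPM in static 1, 3, 5, 7 and 9. Stretch 6 was the highest library and static 7 the lowest, and static 1 and 3 lay among the stretch libraries. The means were 59.6 ± 16.1 CPM with stretch medium and 39.2 ± 16.1 CPM with static medium, a log2 fold change of 0.61 ± 0.25 with an interval of 0.08 to 1.14 (edgeR adjusted p = 0.248). In DESeq2 the unadjusted p of ITGB3 was 0.0653 and its adjusted p 0.3145, so it missed the unadjusted 0.05 there. Without stretch 6 and static 7 together, a pair chosen after seeing the data, the ITGB3 fold change was 0.26 and its unadjusted edgeR p was 0.174. As these were the extreme libraries of ITGB3, leaving them out had to make the difference smaller.

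The beta chains ITGB8 and ITGB5, which also pair with alpha V, had fold changes below 0, neither at an unadjusted p under 0.05. ITGB8, which holds latent TGF-beta at the cell surface, was at 7.57 to 14.5 CPM with stretch medium and 13.2 to 22.2 CPM with static medium, a log2 fold change of -0.42 with an interval of -0.84 to 0.01. ITGB5, the beta chain of a second vitronectin receptor, was at 39.9 to 99.9 CPM with stretch medium and 62.2 to 92.2 CPM with static medium, a log2 fold change of -0.10, and stretch libraries were both the highest and the lowest. ITGA8, an alpha chain of RGD receptors in mesenchyme, averaged 26.9 ± 3.06 CPM with stretch medium and 27.03 ± 3.23 CPM with static medium.

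Of chains that bind collagen, none had an unadjusted p under 0.05. ITGA2, the alpha chain of a fibrillar collagen receptor, was at 455 to 673 CPM with stretch medium and 372 to 569.5 CPM with static medium, a log2 fold change of 0.16 with an interval of -0.12 to 0.44. ITGA1, whose receptor favours basement membrane collagen, was at 135 to 175 CPM with stretch medium and 116 to 154 CPM with static medium, and its position overlaps that of PELO on the same strand. ITGA11, a fibroblast receptor chain for collagen I, was at 34.2 to 45.1 CPM with stretch medium and 21.7 to 45.8 CPM with static medium. ITGA4, which binds VCAM1 and a spliced segment of fibronectin, was at 89.3 to 134 CPM with stretch medium and 93.8 to 128 CPM with static medium. The libraries of the groups overlapped for each of these 4 chains. ITGA10, a collagen receptor chain of cartilage, had 4 to 15 counts per library, 47 over the stretch libraries and 39 over the static ones, and was too low to be tested.

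Among the adaptors, the members at an unadjusted p under 0.05 were FLNC, TNS3, ACTN4 and PXN, all higher with stretch medium, and none was lower at that p. None passed adjustment over all genes. Of the 19 tested adaptors 14 had a fold change above 0, as did 50.1% of all genes, and their median log2 fold change was 0.095. With an offset for transcript GC content, described further on, that median was 0.057, and ILK and PDLIM7 were then below 0. FLNC, TNS3, ACTN4 and PXN encode an actin crosslinker, a tail-end tensin, an alpha-actinin and a scaffold. PTK2, SRC, ILK and PARVA had log2 fold changes within 0.1 of 0, as did the actin linkers VCL and PDLIM7. Those of LIMS1, LPP, FERMT2 and CNN2 were lower, at -0.26, -0.25, -0.19 and -0.17. No difference between kinds of adaptor was tested.

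**Figure D2:**
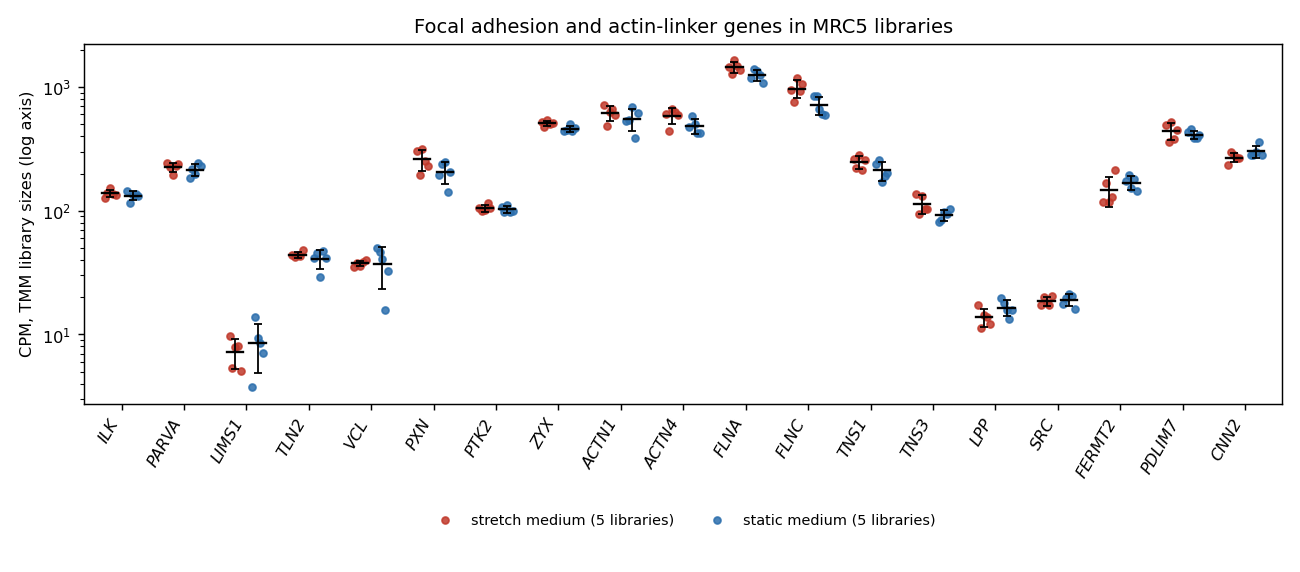
Each point is the level of a focal adhesion or actin-linker gene in 1 library, in CPM on a log axis, with stretch medium in red left of static medium in blue, and bars are the mean ± SD of 5 libraries. The groups overlap for every adaptor drawn, FLNC included, whose lowest stretch library at 754 CPM lies within the static range.

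FLNC (chromosome 7, 128830377 to 128859274) encodes filamin C, an actin crosslinker best known from muscle, where it protects structures under load. It was at 949, 754, 1178, 931 and 1053 CPM in stretch 2, 4, 6, 8 and 10, against 848, 845, 670.3, 606 and 599 CPM in static 1, 3, 5, 7 and 9. All stretch libraries but stretch 4 were above all static libraries. The means were 973 ± 157 CPM with stretch medium and 714 ± 125 CPM with static medium, a log2 fold change of 0.45 ± 0.13 with an interval of 0.16 to 0.73 (edgeR adjusted p = 0.139, DESeq2 adjusted p = 0.0539). Without stretch 4 the FLNC adjusted p in edgeR was 0.0692, the smallest over the libraries left out in turn. Stretch 4 was the lowest stretch library of FLNC, so leaving it out had to widen the difference. In that fit 39 genes of all were called.

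FLNA, the widely expressed filamin that binds integrin beta tails, was at 1265 to 1644 CPM with stretch medium and 1070 to 1397 CPM with static medium, a log2 fold change of 0.20 with an interval of -0.01 to 0.42. TNS3 (chromosome 7, 47275154 to 47582558), a tensin of mature adhesions, was at 138, 93.5, 131, 104 and 104 CPM in stretch 2, 4, 6, 8 and 10, against 81.1, 84.5, 98.5, 94.1 and 104 CPM in static 1, 3, 5, 7 and 9. Stretch 2 and stretch 6 were the highest libraries for TNS3 and the rest lay close to the static ones. The means were 114 ± 19.2 CPM with stretch medium and 92.5 ± 9.56 CPM with static medium, a log2 fold change of 0.30 ± 0.12 with an interval of 0.04 to 0.56 (edgeR adjusted p = 0.247). TNS1, the tensin of fibrillar adhesions, had a log2 fold change of 0.23 with an interval of -0.04 to 0.49.

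ACTN4 (chromosome 19, 38647649 to 38731583) and ACTN1 encode the non-muscle alpha-actinins that bundle actin. ACTN4 was at 608, 439.5, 666, 632 and 591 CPM in stretch 2, 4, 6, 8 and 10, against 474, 582, 505, 423 and 421 CPM in static 1, 3, 5, 7 and 9. All stretch libraries but stretch 4 were above the static ones. Its means were 588 ± 87.4 CPM with stretch medium and 481 ± 66.5 CPM with static medium, a log2 fold change of 0.29 ± 0.12 with an interval of 0.03 to 0.55 (edgeR adjusted p = 0.268). ACTN1 was at 482 to 716 CPM with stretch medium and 387 to 688 CPM with static medium, a log2 fold change of 0.16 with an interval of -0.14 to 0.46.

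PXN (chromosome 12, 120210439 to 120265771) encodes paxillin, the scaffold on which focal adhesion kinase and its substrates gather. It was at 304, 195, 316, 254 and 232 CPM in stretch 2, 4, 6, 8 and 10, against 196, 237, 247, 141 and 204 CPM in static 1, 3, 5, 7 and 9. Stretch 2 and stretch 6 were highest and static 7 lowest, and the other libraries of both groups overlapped. The means were 260.2 ± 50.2 CPM with stretch medium and 205 ± 41.7 CPM with static medium, a log2 fold change of 0.34 ± 0.16 with an interval of 0.01 to 0.67 (edgeR adjusted p = 0.285). Without static 7 the PXN fold change was 0.23. As static 7 was the lowest static library of PXN, leaving it out had to make the difference smaller.

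Unlike that of PXN, the intervals of the kinases, the kindlin and TLN2 included 0. PTK2, the focal adhesion kinase gene, was at 98.7 to 116 CPM with stretch medium and 97.1 to 110.4 CPM with static medium, a log2 fold change of 0.03 with an interval of -0.17 to 0.23. SRC, its partner kinase, averaged 18.6 ± 1.57 CPM with stretch medium and 19.0 ± 2.11 CPM with static medium. FERMT2, the fibroblast kindlin, was at 117 to 212 CPM with stretch medium and 145 to 196 CPM with static medium, a log2 fold change of -0.19, with stretch 10 the highest library. With all libraries the unadjusted edgeR p of FERMT2 was 0.242. Without stretch 10 its fold change was -0.35, the lowest with a library left out, at an edgeR p of 0.0186 (adjusted p = 0.247). As stretch 10 was its highest library, leaving it out had to lower the fold change. Without stretch 6, which lay below the stretch mean, the FERMT2 fold change had to rise and was -0.11. TLN2, a talin, had a log2 fold change of 0.11, with 42.0 to 48.4 CPM with stretch medium and 29.4 to 47.4 CPM with static medium. The interval of the SRC log2 fold change, -0.04, ran from -0.32 to 0.25, which like that of PTK2 includes 0.

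The ILK, PINCH and parvin complex ties beta chains to actin. ILK was at 128 to 153 CPM with stretch medium and 115 to 145 CPM with static medium, a log2 fold change of 0.06 with an interval of -0.15 to 0.27, and it overlaps TAF10 on the opposite strand. PARVA, alpha-parvin, averaged 226 ± 18.7 CPM with stretch medium and 214 ± 23.4 CPM with static medium, a log2 fold change of 0.08. LIMS1, the PINCH adaptor, was low, at 5.02 to 9.73 CPM with stretch medium and 3.74 to 13.8 CPM with static medium, and its value is uncertain because the near-identical LIMS3 is also in the table. For VCL, vinculin, the stretch libraries ran from 35.3 to 40.0 CPM and the static ones from 15.7 to 50.1 CPM, with static 7 the lowest. The interval of the VCL log2 fold change, 0.02, ran from -0.44 to 0.49. The position of VCL overlaps that of AP3M1 on the opposite strand, and whether reads of 1 gene were counted for the other was not tested.

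The LIM proteins of actin fibres and the calponin CNN2 had no unadjusted p under 0.05. ZYX, zyxin, which moves to stretched actin fibres, was at 478 to 545 CPM with stretch medium and 443 to 503 CPM with static medium, a log2 fold change of 0.15 with an interval of -0.04 to 0.34. LPP, its relative, had a log2 fold change of -0.25 with 11.4 to 17.2 CPM with stretch medium and 13.3 to 19.8 CPM with static medium. PDLIM7, a PDZ and LIM protein of stress fibres, was at 359 to 519.5 CPM with stretch medium and 384 to 456 CPM with static medium. CNN2, a calponin that binds actin, was at 236 to 297.5 CPM with stretch medium and 282 to 363 CPM with static medium, a log2 fold change of -0.17. In none of these did the groups separate.

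A further 3 adaptors were in the table at counts too low to test. TLN1, the main talin of fibroblasts, had 0 to 4 counts per library, 4 over the stretch libraries and 9 over the static ones. BCAR1, the Cas scaffold, had 0 to 5 counts per library, 17 over the stretch libraries and 10 over the static ones. PALLD, palladin, had 0 to 6 counts per library, 14 over the stretch libraries and 15 over the static ones. With a floor of 3 counts per library, no difference could be shown for them, and whether their RNA was scarce or their amplicons read poorly was not tested.

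Promoters of 3 adaptors are shown because each holds a motif that was searched for, and whether actin regulates these genes was not tested. In the windows below, from RefSeq on GRCh38.p14, capitals mark the GGAATG motif in FLNC, there on the other strand as CATTCC, and the CArG box of serum response factor in FLNA and CNN2. The motifs start 103 bases before the FLNC start site, 94 before that of FLNA and 89 before that of CNN2.
FLNC chr7:128830258-128830353 (+): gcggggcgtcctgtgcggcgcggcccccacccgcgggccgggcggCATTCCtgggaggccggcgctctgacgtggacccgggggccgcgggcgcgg
FLNA chrX:154374674-154374773 (-): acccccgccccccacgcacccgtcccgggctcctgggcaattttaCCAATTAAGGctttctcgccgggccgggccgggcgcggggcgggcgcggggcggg
CNN2 chr19:1026474-1026573 (+): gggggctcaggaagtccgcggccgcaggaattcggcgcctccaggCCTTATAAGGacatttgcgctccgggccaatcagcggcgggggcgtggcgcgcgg
A CArG box stood in 4 of 45 windows of the 19 adaptor genes with a RefSeq entry, untested ones included (8.89%, in ACTN1, CNN2, FLNA and LPP), in 0 of 17 windows of integrin genes and in 1.16% of all windows. GGAATG stood in 9 of the 45 adaptor windows (20%, against 11.9% of all). TGANTCA, searched on both strands, stood in 7 of 45 (15.6%) and 0 of 17 integrin windows, against 6.57% of all. This pattern is wider than the AP-1 site, which has C or G in the middle. The adaptor matches included TGATTCA in LIMS1 and TGAATCA in LPP and ACTN4, and LPP held several. Shares of the AP-1 site alone were not counted. Windows of alternative starts of 1 gene can overlap and are not independent. The genes with a CArG box had fold changes on both sides of 0, at 0.20 for FLNA, 0.16 for ACTN1, -0.17 for CNN2 and -0.25 for LPP.

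**Figure D3:**
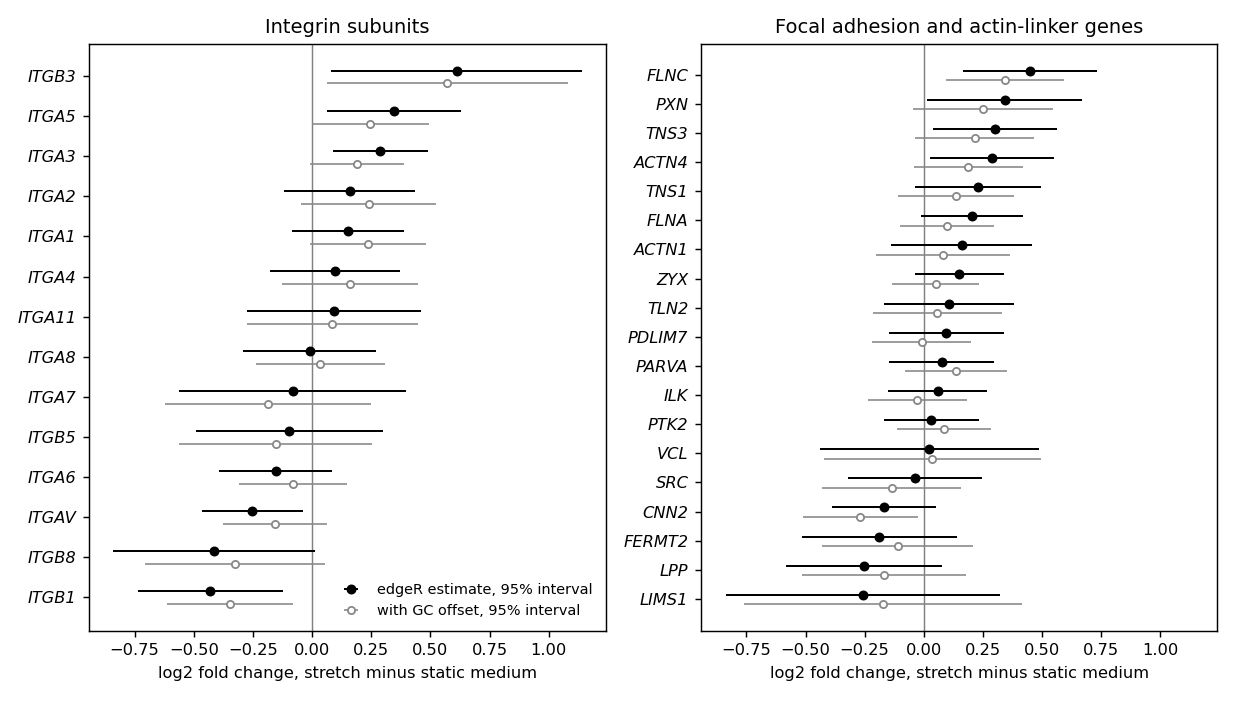
Points are log2 fold changes of stretch minus static medium for each tested member, integrin subunits left and adaptors right, with 95% intervals; filled points are the edgeR estimates and open points those with an offset for transcript GC content. For the filled points, the intervals of ITGB3, ITGA5, ITGA3, FLNC, PXN, TNS3 and ACTN4 lie above 0 and those of ITGAV and ITGB1 below 0. For the open points, only those of ITGB3 and FLNC lie above 0 and only those of ITGB1 and CNN2 below 0. All intervals are before adjustment over all genes.

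The fold changes of these genes moved with the GC content of their transcripts, as did those of genes in general. Across the 33 tested members, Spearman's correlation between log2 fold change and GC content was 0.535, and across the 10834 tested genes with a GC value it was 0.297. Genes are not independent replicates, and all share the same 10 libraries. The median log2 fold change of all genes ran from -0.094 in the 1083 genes of lowest GC (30.2% to 38.5%) to 0.103 in the 1084 genes of highest GC (61.4% to 74.1%). Median GC was 44.6% for the integrin subunits, 56% for the adaptors and 48% for all genes.

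**Figure D4:**
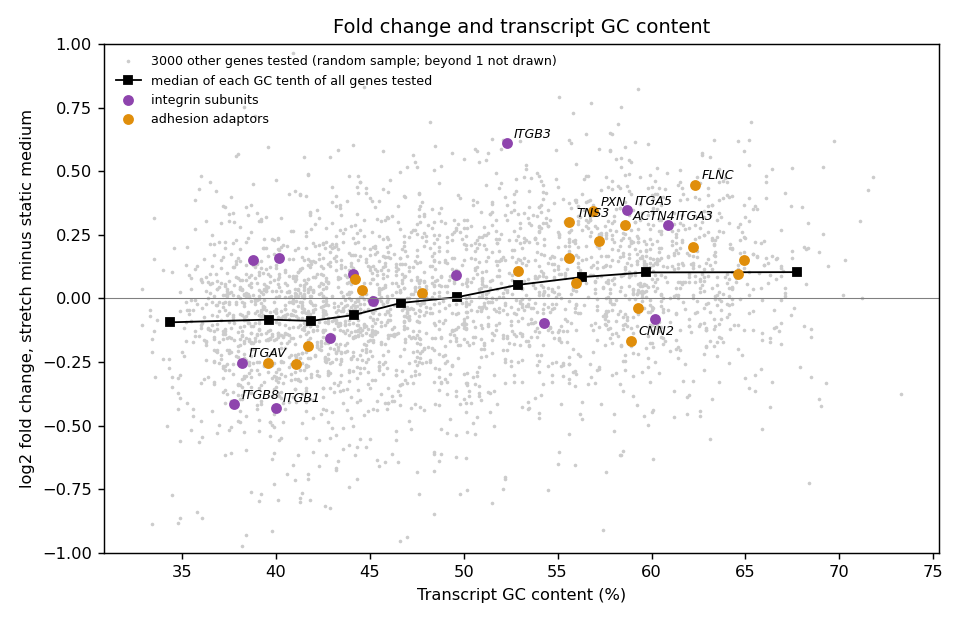
Each point is a gene, with transcript GC content in percent on the x axis and log2 fold change of stretch minus static medium on the y axis; coloured points are integrin subunits and adaptors, grey points a random 3000 other genes, of which 15 lie beyond 1 in size and are not drawn, and squares the medians of 10 equal bins of GC. FLNC at 62.3% GC and ITGAV at 38.2% GC lie on the side to which genes of like GC also lean, and ITGB3 at 52.3% lies far above them.

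With transcript GC taken into account, the differences of the 9 members at an unadjusted p under 0.05 were each smaller. Each of them lay on the side to which genes of like GC lean, so the offset had to move it towards 0. Members on the other side moved away from 0, among them ITGA1 from 0.15 to 0.24, ITGA2 from 0.16 to 0.24 and CNN2 from -0.17 to -0.27. With each library's trend on GC taken off as an offset, a setting added after seeing the data, 4 members had an unadjusted p under 0.05 in edgeR, against 14.9% of all genes. These were 2 higher ones, ITGB3 at a log2 fold change of 0.57 and FLNC at 0.34, against 7.11% of all genes, and 2 lower ones, ITGB1 at -0.35 and CNN2 at -0.27, against 7.74%. ITGA3 was at 0.19, ITGA5 at 0.25, ITGAV at -0.16, TNS3 at 0.21, ACTN4 at 0.19 and PXN at 0.25 with the offset. No member passed an adjusted p of 0.05 with it, and 1 gene of all did. With the offset, Spearman's correlation between log2 fold change and GC content was 0.26 across the 33 tested members. Across all tested genes with a GC value it was 0.00506. The GC values are of whole transcripts, since the positions of the amplicons are not known here.

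The GC trend differed between single libraries. The Spearman correlation of centred log2 CPM with GC was 0.133, -0.175, 0.381, 0.152 and 0.104 in stretch 2, 4, 6, 8 and 10, against -0.124, 0.0568, -0.171, -0.254 and -0.105 in static 1, 3, 5, 7 and 9. Its mean was 0.119 ± 0.198 with stretch medium and -0.119 ± 0.114 with static medium (SD over 5 libraries each), with p = 0.0556 in a two-sided exact permutation test that cannot give a p under 0.00794. Stretch 4 lay among the static libraries and static 3 among the stretch ones. The members' values with the trend taken off are those given with the offset.

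Stretch 6 was often the highest library of these genes and static 7 often the lowest. Stretch 6, with the strongest positive GC trend, was the highest of the 10 libraries for 12 of 33 members (36.4%), against 14.7% of all genes, and static 7, with the strongest negative trend, was the lowest for 9 of 33 (27.3%), against 19.6% of all genes. Static 7 was also the highest library for 12.1% of members, against 19.2% of all genes. ITGA5, ITGB3 and PXN were highest in stretch 6 and lowest in static 7, and ITGB1 and ITGB8 were lowest in stretch 6 and highest in static 7. With these libraries left out, a setting chosen after seeing the data, 2 members were higher at an unadjusted p under 0.05 in edgeR, ITGA3 at a log2 fold change of 0.25 and FLNC at 0.32, and 0 were lower. Of the 10854 genes tested in that fit, 614 were higher at that p and 597 were lower. Without stretch 6 and static 7 the log2 fold change of ITGA5 was 0.21 and that of ITGB1 was -0.21. As these were the extreme libraries of both genes, leaving them out had to make both differences smaller. What sets these libraries apart was not tested.

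**Figure D5:**
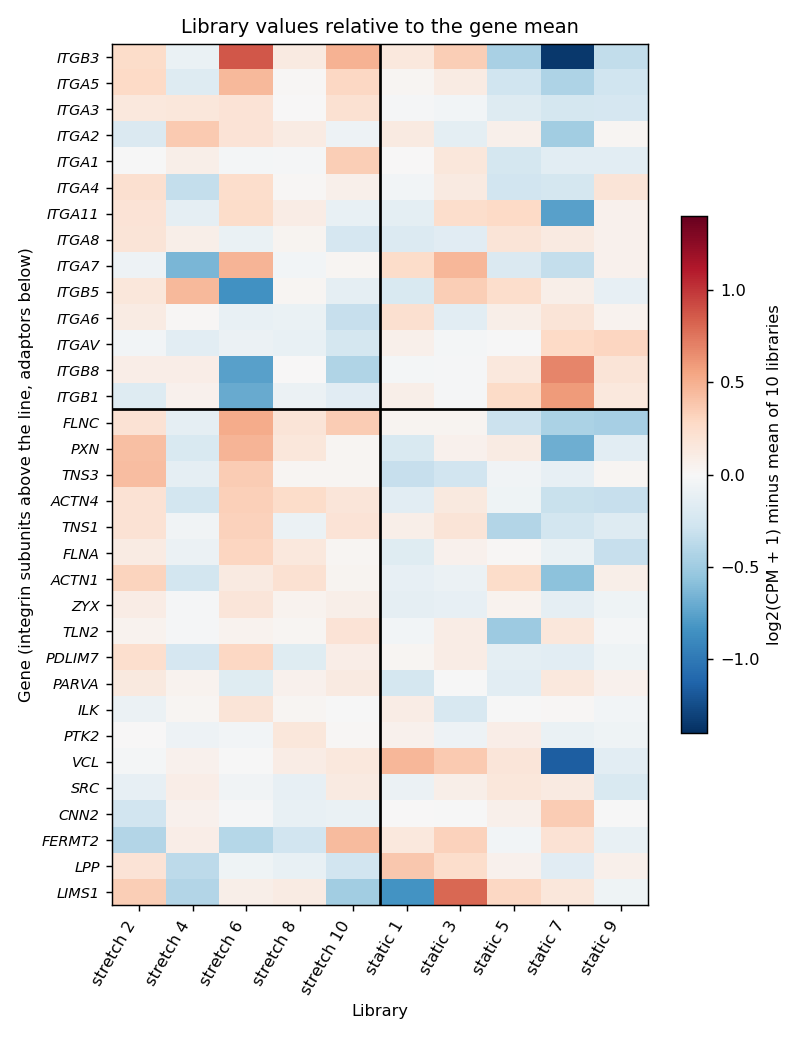
Colour gives log2(CPM + 1) of a gene in a library minus its mean over the 10 libraries, with the 5 stretch libraries left of the 5 static ones, integrin subunits above the line and adaptors below, each sorted by fold change. Stretch 6 and static 7 carry the deepest colours for ITGB3, ITGB1 and ITGB8, and static 7 alone for VCL.

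Of the ligands and partners around the receptors, no gene passed in edgeR. Among 32 tested ligands and matrix partners, 7 were higher at an unadjusted p under 0.05 and 1 was lower, beside the 8.08% and 8.37% of all genes. They included TNC, tenascin C, at 76.0 ± 19.4 CPM with stretch medium and 46.4 ± 9.18 CPM with static medium, a log2 fold change of 0.71 (edgeR adjusted p = 0.1085, DESeq2 adjusted p = 0.0125). LAMA3, a chain of the laminin that alpha 3 binds, was at 15.2 to 18.5 CPM with stretch medium and 10.6 to 13.99 CPM with static medium, with no overlap and a log2 fold change of 0.41 (edgeR adjusted p = 0.166). CCN2, a matricellular ligand, had a log2 fold change of 0.34, and MFGE8, which binds alpha V chains, of 0.31. The list's median log2 fold change was 0.044, but -0.015 with the GC offset, and the direction of these 4 was the same with the GC offset.

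Among 44 tested further adhesion components, 2 were higher and 6 lower at an unadjusted p under 0.05, beside the 8.08% and 8.37% of all genes, and the median log2 fold change was -0.0056, or -0.033 with the GC offset. PTPN11, the SHP2 phosphatase that acts downstream of integrins and growth factor receptors, was at 170, 218, 144, 186 and 200 CPM in stretch 2, 4, 6, 8 and 10, against 243, 243, 264, 278 and 229 CPM in static 1, 3, 5, 7 and 9. Every stretch library was below every static one, with a log2 fold change of -0.45 ± 0.12 (edgeR adjusted p = 0.114, DESeq2 adjusted p = 0.0186). PTPRA, a phosphatase that activates Src, had a log2 fold change of -0.64, CAV1, caveolin 1, of -0.61, and KANK1, which borders adhesions, of 0.31.

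Of 17 tested targets or partners of SRF and MRTF, 4 were higher and 1 lower at an unadjusted p under 0.05, beside 8.08% and 8.37% of all genes, with a median of 0.076, but -0.027 with the GC offset. They were led by CCN2, MRTFA at 0.43, TAGLN, transgelin, at 0.54 and CNN3, a calponin, at -0.26. None of these passed an adjusted p of 0.05 in edgeR.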

How the data were processed

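RNA of 10 MRC5 libraries, 5 per group, was measured after library preparation with the Ion AmpliSeq Transcriptome kit, per the labels' protocols. The tools named, per the submitters' processing notes, are fastp 0.20.1 and Salmon 1.9, with the build hg38/GRCh38. The sources used here do not state the annotation, the use of strand or how estimates became whole. The deposited values are whole-number counts per Ensembl gene, unscaled, in 1 table, whose columns were matched to samples by the title number. Symbols were found for 13625 identifiers and not for 429. The fewest libraries above 0 in any gene was 5.

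The test was edgeR 4.0.16 in R 4.3.3 (filterByExpr, minimum count 10 and minimum total 15; TMM; quasi-likelihood fit) on the counts of all genes, adjusted by Benjamini-Hochberg and called under 0.05. CPM use TMM library sizes, intervals are 95%, and the script was tested on simulated data. The biological coefficient of variation was 17.5%. Chi-square per degree of freedom between libraries of 1 group was 5.75 to 23, so none was treated as a repeat deposit. Alternatives were other scalings and filters, DESeq2 1.42.0, limma-voom (3.58.1), the title number as a covariate, a threshold of 0.1 and leaving out single libraries. Chosen after seeing the data were a per-library GC offset (lowess, span 0.3, on the GC of each gene's longest annotated transcript) and leaving out static 7 and stretch 6 together.

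The members and the other lists were chosen with earlier results of these data known. All 38 members are named, with every library's value where the unadjusted p was under 0.05, and of each other list the up to 4 genes of smallest p; 1 list is not reported here. The exact permutation tests ran over 252 arrangements. Promoters were 250 bases before each RefSeq start on GRCh38.p14, for 31 members with an entry. Gene positions are from GENCODE on GRCh38.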

Additional observations from a re-analysis of the deposited data

Results flagged for a closer look

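In 68 groups of 5 libraries, the 33 tested members and total counts included, a library that stood far from the other 4 was found in 3. Chance alone flags about 1 group in 20, so these flags are no more than chance would give. ITGA1, a collagen receptor chain, was at 175 CPM in stretch 10 against 135 to 146 CPM in the other stretch libraries, a gap of 0.718 of the group's range, where the critical value is 0.71. ITGB8, which holds latent TGF-beta, was at 22.2 CPM in static 7 against 13.2 to 15.4 CPM in the other static libraries, a gap of 0.752. CNN2, a calponin, was at 363 CPM in static 7 against 283 to 299 CPM in the other static libraries, a gap of 0.796. Whether static 7 departs for ITGB8 and CNN2 by more than chance was not tested.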

How the results depend on the processing

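Over all genes, edgeR called 0, DESeq2 275, limma-voom 1, edgeR with the GC offset 1, edgeR without static 7 and stretch 6 2, and edgeR at a threshold of 0.1 61; with each library left out the count ran from 0 to 39, at 39 without stretch 4, 2 without stretch 6 and 1 without stretch 10. No member was called at 0.05 in any of these. Members higher at an unadjusted p under 0.05 numbered 7, but 2 with the GC offset and 2 without static 7 and stretch 6. They numbered 2 to 8 with each library left out. Lower members numbered 2, but 0 without static 7 and stretch 6, and 1 to 4 with each library left out. Of all genes, those higher numbered 886, but 780, 614 and 646 to 1007 in the same settings. Those lower numbered 918, but 597 without static 7 and stretch 6, and 690 to 1071 with each library left out. With each library left out, the median log2 fold change ran from -0.015 to 0.096 for the integrin subunits and from 0.063 to 0.129 for the adaptors.

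Scalings, filters, DESeq2, limma-voom and the title number turned no member's direction. The GC offset turned ITGA8 to 0.035, ILK to -0.027 and PDLIM7 to -0.0089. Leaving out static 7 and stretch 6 turned ITGA4 to -0.0028, ITGA8 to 0.049, ITGA11 to -0.11, ITGB5 to 0.060, VCL to -0.16 and SRC to 0.0037. With each library left out, fold changes of both signs were found for ITGA7 (-0.26 to 0.053), ITGA8 (-0.059 to 0.042), ITGA11 (-0.053 to 0.18), ITGB5 (-0.24 to 0.062), VCL (-0.18 to 0.15), PTK2 (-0.0062 to 0.060) and SRC (-0.092 to 0.0021). The members at an unadjusted p under 0.05 kept their direction in all settings, for example 0.42 to 0.81 for ITGB3 with each library left out. No paired analysis was possible because the groups share no replicate number. At the few counts of TLN1 and BCAR1 no difference was detectable at this depth. The cause of these changes was not tested.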

Other observations

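Of 10 further integrin subunits that mark leukocytes, platelets or other cells, 5 were in the table. ITGAE, an alpha chain known from lymphocytes of the epithelium, was the 1 with enough counts to be tested, at 10.7 ± 2.41 CPM with stretch medium and 13.6 ± 0.348 CPM with static medium (SD over 5 libraries), a log2 fold change of -0.34 (edgeR adjusted p = 0.311). The platelet chain ITGA2B had 0 to 3 counts per library, ITGA9 1 to 6, and the leukocyte chains ITGAX 0 to 5 and ITGB7 0 to 8. Smooth muscle markers summed to 82.3 to 99.6 CPM with stretch medium and 69.8 to 96.7 CPM with static medium, with MYH11 at 0 to 5, SMTN at 206 to 422 and CNN1 at 135 to 307 counts. Endothelial markers summed to 48.6 to 68.4 CPM with stretch medium and 53.7 to 66.4 CPM with static medium. Immune markers, of which CD68 made up most, summed to 183 to 233 CPM with stretch medium and 195 to 210 CPM with static medium.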
